A study of Mus musculus with 6 samples.

Results

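The genes described here encode the NF-κB transcription factor subunits and the kinases that switch them on. They were the 10 rows of a deposited gene count table whose symbols are Nfkb1, Nfkb2, Rel, Rela, Relb, Chuk, Ikbkb, Ikbkg, Ikbke and Tbk1. The table held 22192 genes, and all 10 were present and abundant enough to test among the 11686 genes that passed the filter on low counts. The libraries were made from poly(A) RNA of RAW 264.7, a macrophage-like line from BALB/c mice, 3 from cells given ASPS-A1 and 3 labelled control. ASPS-A1 is a fraction of an acidic leaf polysaccharide of Acanthopanax senticosus, added at 200 µg/mL for 24 h. The labels say no more of the control cells, and nothing says whether libraries of a group came from separate cultures, so p-values measure the spread between these libraries, which may be technical. The line is a single transformed population, and no other macrophages were sampled. The series title names NF-κB as a theme of the study.

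NF-κB is a family of dimers built from p105/p50 (Nfkb1), p100/p52 (Nfkb2), p65 (Rela), c-Rel (Rel) and RelB (Relb). In the canonical branch, the complex of IKKβ (Ikbkb), IKKα (Chuk) and the regulatory subunit NEMO (Ikbkg) phosphorylates IκB inhibitors, which frees dimers of p50 with p65 or c-Rel. In the alternative branch, the kinase NIK acts through IKKα on p100, whose processing yields p52 bound to RelB. IKKε (Ikbke) and TBK1 (Tbk1) are related kinases best known for phosphorylating interferon regulatory factors. These kinases and dimers are regulated largely at the protein level, by phosphorylation, degradation and movement to the nucleus, which transcript counts do not measure.

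Libraries held between 19989318 and 22179544 counts with ASPS-A1 and between 23113454 and 26137127 counts in control. Each of the 10 genes had between 392 and 4664 counts in a library. Values are given as CPM, read counts normalised to library size with TMM factors (a trimmed mean of log ratios between libraries). Macrophage markers were present, and their summed level was 3166 to 3279 CPM with ASPS-A1 against 2252 to 2278 CPM in control. Of those 9 markers 6 rose and 1, Fcgr3, fell. By the same test, described below, 32.4% of all genes tested were higher and 33.0% lower. Markers of other cells were near 0, with exceptions in single genes. T cell markers summed to 5.00 to 7.04 CPM with ASPS-A1 and 2.66 to 2.98 CPM in control, nearly all from Lck, with Cd3e and Cd3g at 0. B cell markers summed to 31.8 to 38.3 CPM with ASPS-A1 and 30.3 to 32.6 CPM in control, nearly all from Cd79b. Fibroblast markers summed to at most 1.03 CPM with ASPS-A1 and 0.581 CPM in control. Epithelial markers summed to at most 0.265 CPM with ASPS-A1 and 0.116 CPM in control, with Epcam and Krt8 at 0. Dendritic cell markers summed to 3.63 to 5.03 CPM with ASPS-A1 and 4.48 to 4.68 CPM in control. The part of these marker differences in the results below was not tested, and fewer cells expressing a gene cannot be told apart from less RNA per cell.

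The subunit and kinase transcripts did not move as a block. With ASPS-A1, Nfkb1, Nfkb2, Rel, Relb and Ikbke were higher, Ikbkg and Tbk1 were lower, and Rela, Ikbkb and Chuk were not past the threshold of an adjusted p of 0.05. The test was edgeR's quasi-likelihood test, and p-values were adjusted by Benjamini-Hochberg over the 11686 genes. The 7 of 10 called stand beside 65.3% of all genes tested, and the 5 higher and 2 lower stand beside 32.4% and 33.0%, so the number called was near that of genes at large. The libraries of the 2 groups did not overlap in CPM for the same 7 genes, against 68.5% of all genes tested. The median log2 fold change of the 10 genes was 0.26, against −0.021 for all genes tested. With scaling by library totals alone, the median of all genes moved by −0.19 on the log2 scale, and 31.7% of all calls were higher, against 49.5% with TMM factors. The 10 genes then had 5 higher and 3 lower, the added one being Ikbkb.

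**Figure D1:**
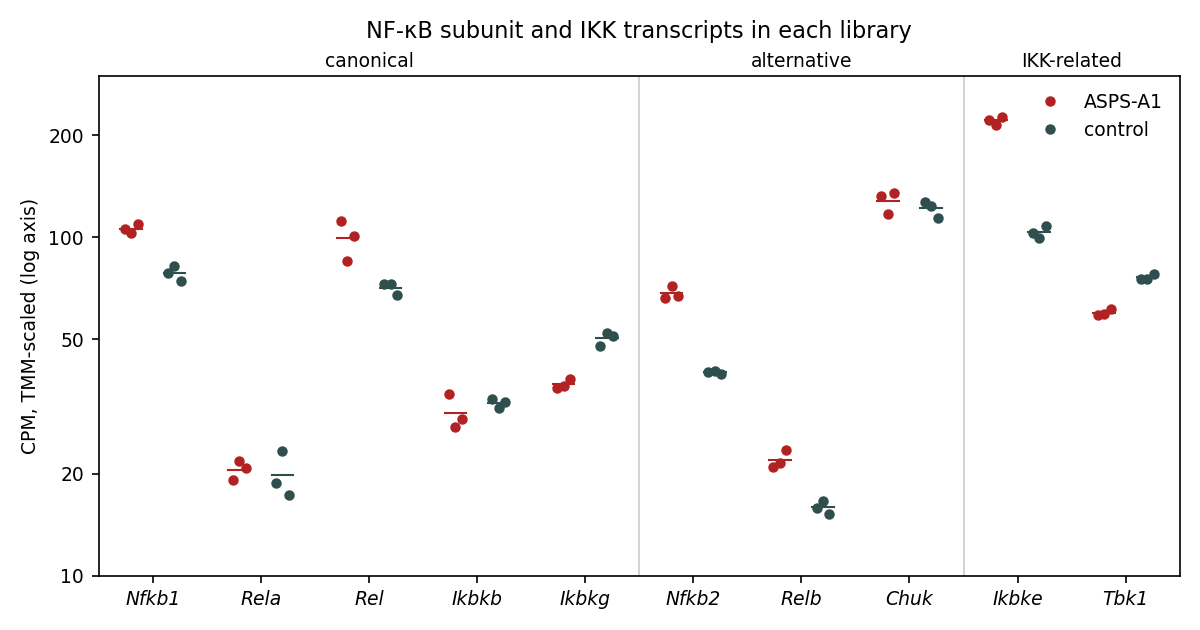
Level of each gene in CPM (log axis) in the 3 ASPS-A1 libraries (left, red) and the 3 control libraries (right, dark), with 1 point per library and a line at the group mean. The ASPS-A1 points of Ikbke (214 to 227 CPM) lie above all control points (99.3 to 108 CPM), while the groups overlap for Rela, Ikbkb and Chuk.

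Among the canonical subunits, the precursor and c-Rel transcripts rose and the p65 transcript did not pass the test. Nfkb1, which encodes p105 and its product p50, had 106, 103 and 109 CPM with ASPS-A1 against 78.3, 82.4 and 74.1 CPM in control. Every ASPS-A1 library was above every control library. This was a log2 fold change of 0.44 ± 0.056 (SE, n = 3 per group, edgeR adjusted p = 2.48e-09), or 1.36-fold.

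Rel, which encodes the transactivating subunit c-Rel, had 112, 85.2 and 101 CPM with ASPS-A1 against 72.9, 72.5 and 67.5 CPM in control. The ASPS-A1 libraries were more spread than the control libraries, with an SD of 13.3 against 3.05 CPM, but the groups did not overlap. The log2 fold change was 0.48 ± 0.071 (SE, edgeR adjusted p = 1.38e-06), with 0.39 without ASPS-A1 replicate 1, the highest library, and 0.58 without ASPS-A1 replicate 2, the lowest.

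Rela, which encodes p65, the main transactivating partner of p50, had 19.1, 21.8 and 20.8 CPM with ASPS-A1 against 18.8, 23.4 and 17.3 CPM in control. The ASPS-A1 values lay inside the control range. Its log2 fold change was 0.052 with a 95% interval of −0.15 to 0.25 (edgeR adjusted p = 0.669).

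Both alternative subunits rose. Nfkb2, which encodes p100 and its product p52, had 65.9, 71.9 and 67.1 CPM with ASPS-A1 against 40.1, 40.2 and 39.4 CPM in control. The control libraries were within 1 CPM of each other, and all ASPS-A1 libraries were higher. The log2 fold change of 0.77 ± 0.065 (SE, edgeR adjusted p = 1.58e-14), or 1.71-fold, was larger in size than that of 82.4% of the genes tested. In the GENCODE mouse annotation, 19.7% of the Nfkb2 exon length is shared with Psd and another gene on the opposite strand, and whether the authors counted by strand is not given in the sources used here. Psd itself had between 68 and 94 counts in each library, against 994 to 1381 for Nfkb2. How reads in the shared length were counted is not known, so these counts set no bound on them.

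Relb, which encodes the partner of p52, had 21.0, 21.6 and 23.5 CPM with ASPS-A1 against 15.9, 16.6 and 15.2 CPM in control. Again every ASPS-A1 library was above every control library. Relb differed by a log2 fold change of 0.47 ± 0.095 (SE, edgeR adjusted p = 3.23e-05). Under library totals alone the values of the 4 subunits that rose were smaller but still past the threshold, at 0.58 for Nfkb2, 0.29 for Rel, 0.27 for Relb and 0.24 for Nfkb1.

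Because several NF-κB subunit genes are known to be transcribed by NF-κB itself, the sequence upstream of the start sites was searched for the κB consensus decamer on both strands. RefSeq start sites were found for 7 of the 10 genes, all but Nfkb1, Ikbkb and Relb, and the 250 bases before each were read. A match was present for 2 of those 7 genes, Nfkb2 and Rel, and before each of the 3 Nfkb2 start sites, against 7.25% of 32817 start sites and 8.23% of 26994 genes. Of the other genes that rose, Ikbke had no match in its window, and Nfkb1 and Relb had no window to read. The windows with a match held 64.4% to 77.6% GC, and the shares over all start sites and genes were not matched for GC. Whether the matches have a part in any difference in level was not tested. The 7 decamers matched fell at 5 places, since 2 of the places hold a pair that overlaps with a shift of 1 base. Each place is printed within 30 bases, in the direction of transcription and with the matched letters in capitals. The match before Nfkb2 start site 2 reads as the consensus on the opposite strand.
Nfkb2 start site 1, first place: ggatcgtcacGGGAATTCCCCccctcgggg
Nfkb2 start site 1, second place: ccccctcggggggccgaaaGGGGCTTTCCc
Nfkb2 start site 2: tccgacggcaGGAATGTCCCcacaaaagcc
Nfkb2 start site 3: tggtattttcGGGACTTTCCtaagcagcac
Rel start site 1: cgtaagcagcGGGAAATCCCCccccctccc
On build GRCm38.p6 the Nfkb2 stretches are, in that order, chr19:46304688-46304717, chr19:46304707-46304736, chr19:46305449-46305478 and chr19:46305695-46305724 on the plus strand, and the Rel stretch is chr11:23771042-23771071 on the minus strand. The places began 39 and 11 bases before Nfkb2 start site 1, 236 bases before Nfkb2 start site 2, 225 bases before Nfkb2 start site 3 and 92 bases before the Rel start site. They are descriptions of sequence, and binding was not measured.

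The 3 genes of the IKK complex divided into 2 kinases that did not pass the test and a regulatory subunit that fell. Chuk, which encodes IKKα, the kinase shared by both branches, had 133, 117 and 135 CPM with ASPS-A1 against 127, 124 and 114 CPM in control. The groups overlapped. Chuk had a log2 fold change of 0.076 with a 95% interval of −0.035 to 0.19 (edgeR adjusted p = 0.227), and it passed the threshold at 0.13 (edgeR adjusted p = 0.0218) without ASPS-A1 replicate 2, the lowest of its group.

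Ikbkb, which encodes the canonical kinase IKKβ, had 34.4, 27.4 and 29.1 CPM with ASPS-A1 against 33.4, 31.2 and 32.7 CPM in control. The ASPS-A1 libraries spanned the control range. Ikbkb had a log2 fold change of −0.095 with a 95% interval of −0.26 to 0.070 (edgeR adjusted p = 0.311). It passed the threshold at −0.29 (edgeR adjusted p = 0.00316) with scaling by library totals alone.

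Ikbkg, which encodes NEMO, the ubiquitin-binding scaffold of the complex, had 35.9, 36.4 and 38.1 CPM with ASPS-A1 against 47.7, 52.2 and 51.1 CPM in control. All ASPS-A1 libraries were below all control libraries. NEMO transcripts had a log2 fold change of −0.45 ± 0.070 (SE, edgeR adjusted p = 2.11e-07), or 1.37-fold lower. Its longest transcript has 6994 nt, among the longer of the 10 genes, and with offsets that remove a trend of fold change on transcript length and GC content it was −0.27, still past the threshold.

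The paired IKK-related kinases moved in opposite directions. Ikbke, which encodes the inducible kinase IKKε, had 223, 214 and 227 CPM with ASPS-A1 against 103, 99.3 and 108 CPM in control. The groups were far apart next to their spread, with SDs of 6.48 CPM with ASPS-A1 and 4.22 CPM in control. Its log2 fold change of 1.10 ± 0.050 (SE, edgeR adjusted p = 8.31e-24), or 2.14-fold, was the largest of the 10 genes and larger in size than that of 92.5% of the genes tested.

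Tbk1, which encodes the broadly expressed kinase TBK1, had 58.9, 59.2 and 61.5 CPM with ASPS-A1 against 75.1, 75.4 and 78.1 CPM in control. Every ASPS-A1 library was lower than every control library. The log2 fold change was −0.35 ± 0.059 (SE, edgeR adjusted p = 1.59e-06), or 1.27-fold lower, and −0.54 with scaling by library totals alone.

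**Figure D2:**
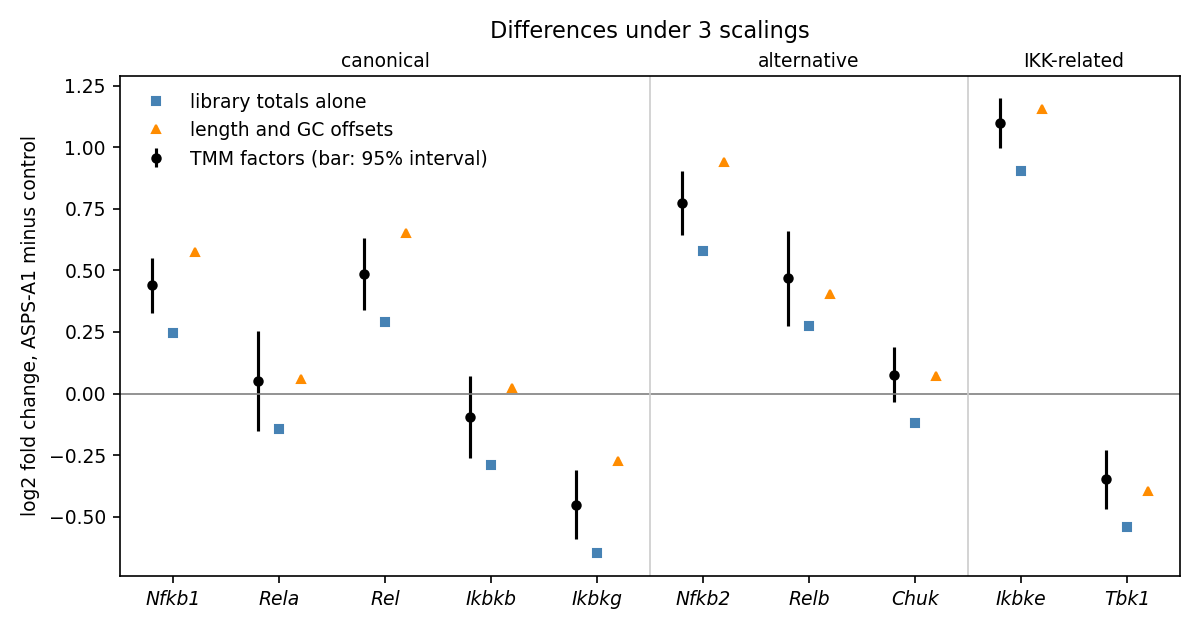
Log2 fold change (ASPS-A1 minus control) of each gene with TMM factors (black, bars the 95% interval), with library totals alone (blue) and with length and GC offsets (orange). Nfkb1, Rel, Nfkb2, Relb and Ikbke stay above 0 and Ikbkg and Tbk1 below 0 in all 3, while Rela, Ikbkb and Chuk change sign between them.

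The canonical and alternative branches were compared through ratios within a library, which do not depend on scaling between libraries. The ratio of Nfkb2 to Nfkb1 counts, on the log2 scale, was −0.68, −0.52 and −0.70 with ASPS-A1 against −0.97, −1.03 and −0.91 in control. It was higher in every ASPS-A1 library, by 0.33 on the log2 scale or 1.26-fold (exact permutation p = 0.1, two-sided, adjusted p = 0.167 over the 5 ratios). The smallest p that 3 libraries against 3 can give is 0.1, so no ratio could pass 0.05.

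The ratio of Relb to Rela was 0.13, −0.014 and 0.18 with ASPS-A1 against −0.24, −0.49 and −0.19 in control. It was also higher in every ASPS-A1 library, by 0.41 on the log2 scale (exact permutation p = 0.1, adjusted p = 0.167). Against Rel, the other canonical partner, Relb did not stand apart. That ratio was −2.41, −1.98 and −2.10 with ASPS-A1 against −2.20, −2.12 and −2.15 in control, a difference of −0.0075 (exact permutation p = 1), and it ranged from −0.10 to 0.12 when each library was left out. Nfkb2 was thus higher relative to Nfkb1, and Relb relative to Rela, while Relb was not separated from Rel. No ratio of Relb to Nfkb1 was taken, and their log2 fold changes were 0.47 and 0.44.

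Among the kinases, the ratio of Chuk to Ikbkb was 1.95, 2.09 and 2.21 with ASPS-A1 against 1.93, 1.99 and 1.80 in control, and the groups overlapped (difference 0.18, exact permutation p = 0.2, adjusted p = 0.25). The ratio of Ikbke to Tbk1 was 1.92, 1.85 and 1.88 with ASPS-A1 against 0.46, 0.40 and 0.47 in control. The difference of 1.45 on the log2 scale, or 2.72-fold, compares with SDs of 0.032 with ASPS-A1 and 0.036 in control (exact permutation p = 0.1, adjusted p = 0.167).

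**Figure D3:**
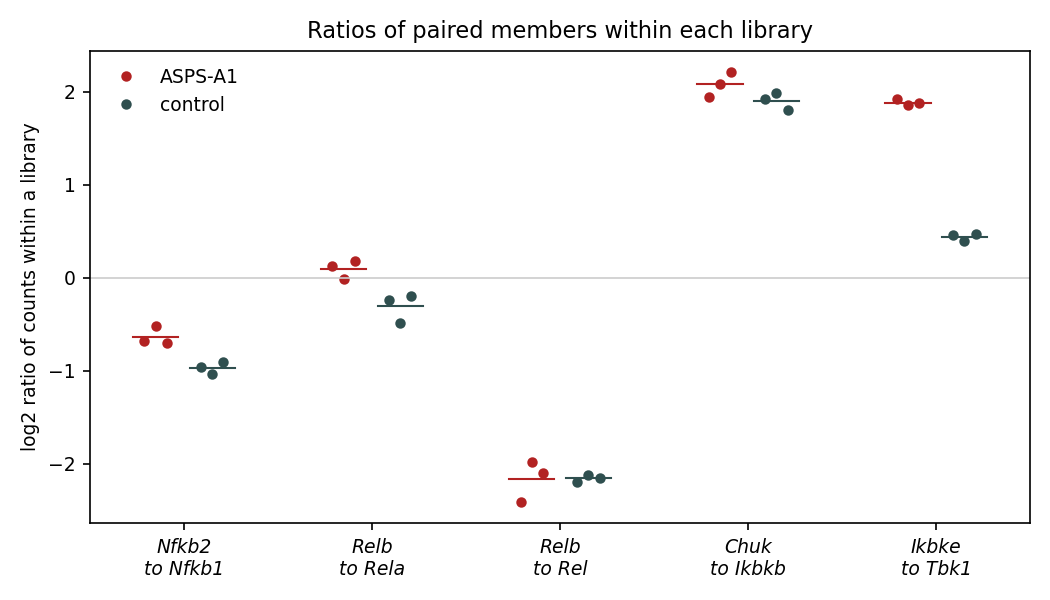
Log2 ratio of counts of 5 pairs of genes within each library, ASPS-A1 on the left (red) and control on the right (dark), with 1 point per library and a line at the mean. Nfkb2 to Nfkb1, Relb to Rela and Ikbke to Tbk1 are higher in all ASPS-A1 libraries, and the points of Relb to Rel and of Chuk to Ikbkb overlap.

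Levels were compared between genes per length of the longest annotated transcript, as RPKM (CPM per 1000 nt of transcript). With ASPS-A1 the order of the mean RPKM was Ikbke at 68.1, Chuk at 36.6, Nfkb1 at 25.8, Tbk1 at 19.8, Nfkb2 at 17.8, Rel at 13.3, Relb at 9.96, Ikbkb at 7.62, Rela at 7.57 and Ikbkg at 5.26. Neighbours in that order did not overlap between libraries except Ikbkb and Rela. In control the order was Chuk at 34.7, Ikbke at 31.8, Tbk1 at 25.2, Nfkb1 at 19.0, Nfkb2 at 10.4, Rel at 9.51, Ikbkb at 8.15, Rela at 7.30, Relb at 7.20 and Ikbkg at 7.19. There, Chuk and Ikbke overlapped, and so did each neighbouring pair from Ikbkb down to Ikbkg. The transcript used by these cells was not measured, so an RPKM depends on the length assumed.

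Summed over the 5 subunits, the level was 74.3 ± 1.41 RPKM with ASPS-A1 and 53.4 ± 2.90 RPKM in control (SD, n = 3 each). Nfkb1 was the most abundant subunit and made up 34.7% ± 0.347 of that sum with ASPS-A1 and 35.6% ± 0.0906 in control. The share of Nfkb2 was 23.1%, 25.6% and 23.0% with ASPS-A1 against 19.6%, 18.6% and 20.3% in control, higher in each ASPS-A1 library. The share of Rela was 9.48%, 11.0% and 10.1% with ASPS-A1 against 13.0%, 15.3% and 12.6% in control, lower in each ASPS-A1 library although its level was not past the threshold. The share of Rel was 17.9% ± 2.23 with ASPS-A1 and 17.8% ± 0.542 in control, that of Relb was 13.4% ± 0.631 with ASPS-A1 and 13.5% ± 0.106 in control, and both overlapped between the groups.

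Over the 5 IKK genes the summed level was 137 ± 5.61 RPKM with ASPS-A1 and 107 ± 0.859 RPKM in control. Without Ikbke it was 69.3 ± 3.67 RPKM with ASPS-A1 and 75.3 ± 1.23 RPKM in control, so the higher sum came from that gene. Ikbke made up 49.0%, 50.3% and 49.4% of the IKK sum with ASPS-A1 against 29.4%, 28.8% and 31.0% in control. Tbk1 made up 14.4% ± 0.509 with ASPS-A1 against 23.5% ± 0.562 in control, and Ikbkg 3.83% ± 0.149 with ASPS-A1 against 6.72% ± 0.364 in control. The share of Chuk was 26.6% ± 0.995 with ASPS-A1 against 32.4% ± 1.76 in control, and that of Ikbkb 5.54% ± 0.560 with ASPS-A1 against 7.62% ± 0.195 in control. Both were lower in each ASPS-A1 library, where the sum includes the higher Ikbke level.

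**Figure D4:**
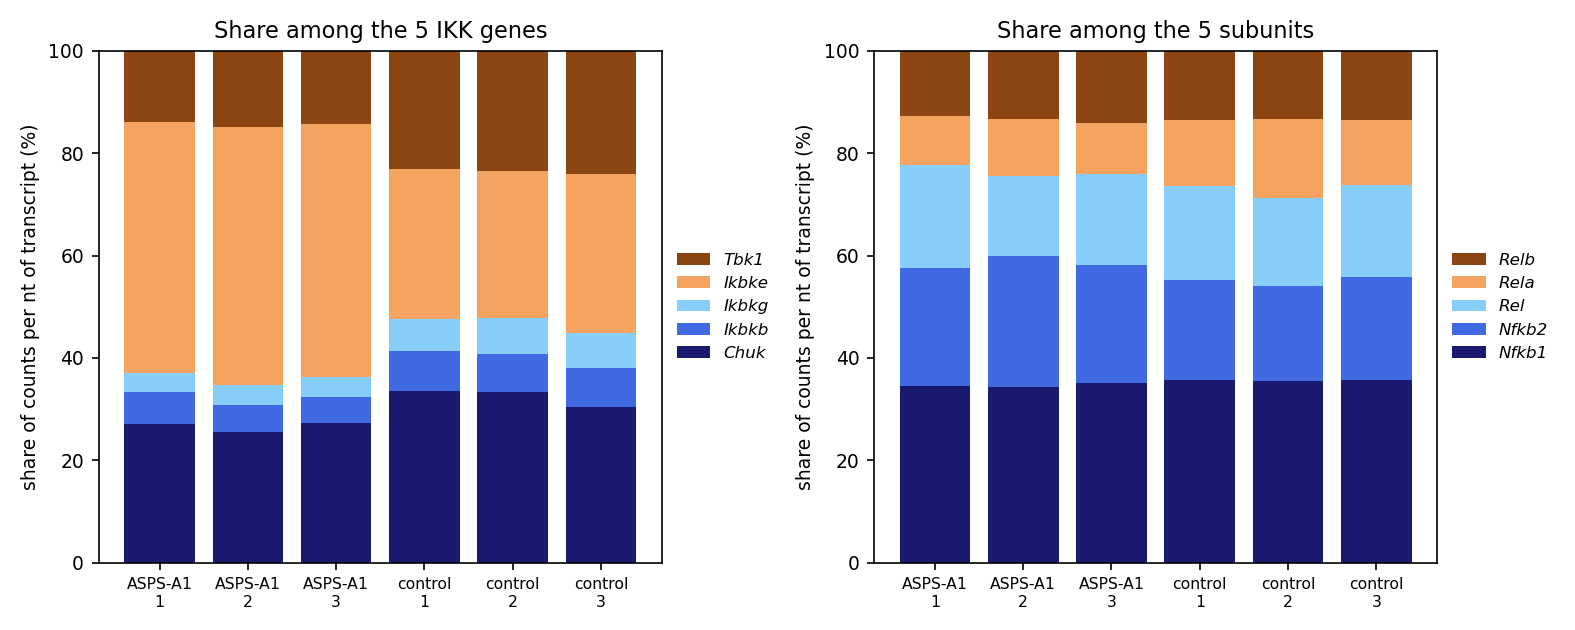
Share of each gene in the summed counts per nt of transcript, for the 5 IKK genes (left) and the 5 subunits (right), with 1 bar per library. Ikbke takes 49.0% to 50.3% of the IKK bars with ASPS-A1 and 28.8% to 31.0% in control, and Nfkb2 takes 23.0% to 25.6% of the subunit bars with ASPS-A1 and 18.6% to 20.3% in control.

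Genes that feed into or hold back these subunits and kinases moved in both directions. Of 6 IκB proteins, which hold NF-κB dimers or act with them in the nucleus, 4 rose and 2 fell (median log2 fold change 0.43, against −0.021 for all genes tested). Here and in the lists that follow, the counts are to be read against all genes tested, of which 65.3% were called, 32.4% higher and 33.0% lower, and a share near these is no result about a list. Bcl3, a nuclear partner of p50 and p52 homodimers, had 59.2 ± 4.90 CPM with ASPS-A1 and 25.9 ± 0.510 CPM in control. Its log2 fold change was 1.19 (edgeR adjusted p = 5e-19), and Nfkbia, the classical inhibitor IκBα, had 0.86 (edgeR adjusted p = 1.88e-19), or 0.56 with the length and GC offsets. Nfkbid, a nuclear IκB, fell by 0.49 on the log2 scale. When ASPS-A1 replicate 1 or control replicate 2 was left out, 1 of the 6 fell, and Nfkbid kept its call (edgeR adjusted p = 0.000261 and 0.000789). Library totals alone gave 3 higher and 2 lower, and so did leaving out control replicate 3.

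Of 11 genes of TAK1 and IKK activation, 2 were called higher and 5 lower, and 4 did not pass (median −0.067). Library totals alone gave 1 higher and 8 lower. Ripk1, the scaffold kinase of tumour necrosis factor receptors, had 7.16 ± 0.687 CPM with ASPS-A1 and 16.1 ± 1.62 CPM in control (log2 fold change −1.18, edgeR adjusted p = 1.49e-11). Traf6, the ubiquitin ligase downstream of Toll-like receptors, had a log2 fold change of −0.91 (edgeR adjusted p = 8.06e-10). Ube2n, its ubiquitin-conjugating enzyme, rose by 0.34, or by 0.15 with library totals alone. Sharpin, a subunit of the linear ubiquitin ligase, had 0.20 (edgeR adjusted p = 0.00872), which lost the call at 0.14 with upper-quartile factors, at 0.0001 with library totals and at −0.017 with the length and GC offsets.

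Of 12 genes of the NIK axis, which controls the alternative branch, 5 were called higher and 3 lower, and 4 did not pass (median 0.15). Library totals alone gave 3 higher and 5 lower. Cd40, a receptor that signals through both branches, had 60.2 ± 5.08 CPM with ASPS-A1 and 24.7 ± 1.88 CPM in control (log2 fold change 1.29, edgeR adjusted p = 1.47e-19). Tnfrsf12a, the TWEAK receptor, had a log2 fold change of 0.65 (edgeR adjusted p = 8.94e-06), or 0.22 (edgeR adjusted p = 0.104) with the length and GC offsets. Map3k14, which encodes NIK itself, had 18.8 ± 2.43 CPM with ASPS-A1 and 25.5 ± 1.02 CPM in control (log2 fold change −0.44, edgeR adjusted p = 5.3e-05). Traf3, the adaptor through which NIK is degraded, had −0.43 (edgeR adjusted p = 2.13e-06). With the length and GC offsets, Map3k14 had −0.24 and Traf3 −0.18, both past the threshold. The transcripts of NIK and of the adaptor that limits it were thus both lower while those of p100 and RelB were higher.

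Of 10 scaffolds and substrates of TBK1 and IKKε, 4 were called higher and 2 lower, and 4 did not pass (median 0.14). Library totals alone gave 2 higher and 4 lower, and upper-quartile factors gave 4 lower. The interferon regulatory factors that these kinases phosphorylate differed in direction. Irf7, the inducible one, had 18.1 ± 0.494 CPM with ASPS-A1 and 9.21 ± 0.929 CPM in control (log2 fold change 0.97, edgeR adjusted p = 2.36e-10). Irf3, the one made without induction, had 10.4 ± 1.55 CPM with ASPS-A1 and 17.0 ± 1.28 CPM in control (log2 fold change −0.70, edgeR adjusted p = 7.23e-07). Among the upstream adaptors, Ticam1, which encodes TRIF, rose by 0.84 and Mavs, of the RNA-sensing pathway, fell by 0.32 on the log2 scale, or by 0.52 with library totals alone.

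Of 12 genes that end or restrain NF-κB signalling, 4 were called higher and 5 lower, and 3 did not pass (median −0.063). Library totals alone gave 3 higher and 7 lower. Commd1, which promotes p65 degradation, rose by 0.62 on the log2 scale. The ubiquitin ligase Itch, a partner of A20, had a log2 fold change of −0.77 (edgeR adjusted p = 1.01e-13) and N4bp1 had −0.74 (edgeR adjusted p = 4.13e-13). Tnfaip3, which encodes A20 itself, did not pass at 0.054 (edgeR adjusted p = 0.524). Of 6 genes known in stromal cells as targets of p52 and RelB, 1 was abundant enough to test. Tnfsf13b, which encodes the B cell factor BAFF, had 29.8 ± 2.40 CPM with ASPS-A1 and 23.5 ± 1.53 CPM in control (log2 fold change 0.35, edgeR adjusted p = 0.000444), and the call was lost with library totals alone (0.15, edgeR adjusted p = 0.12). Cxcl13, Ccl19, Ccl21a and Tnfsf11 were listed at 0 counts in all libraries, and Cxcl12 was below the filter.

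**Figure D5:**
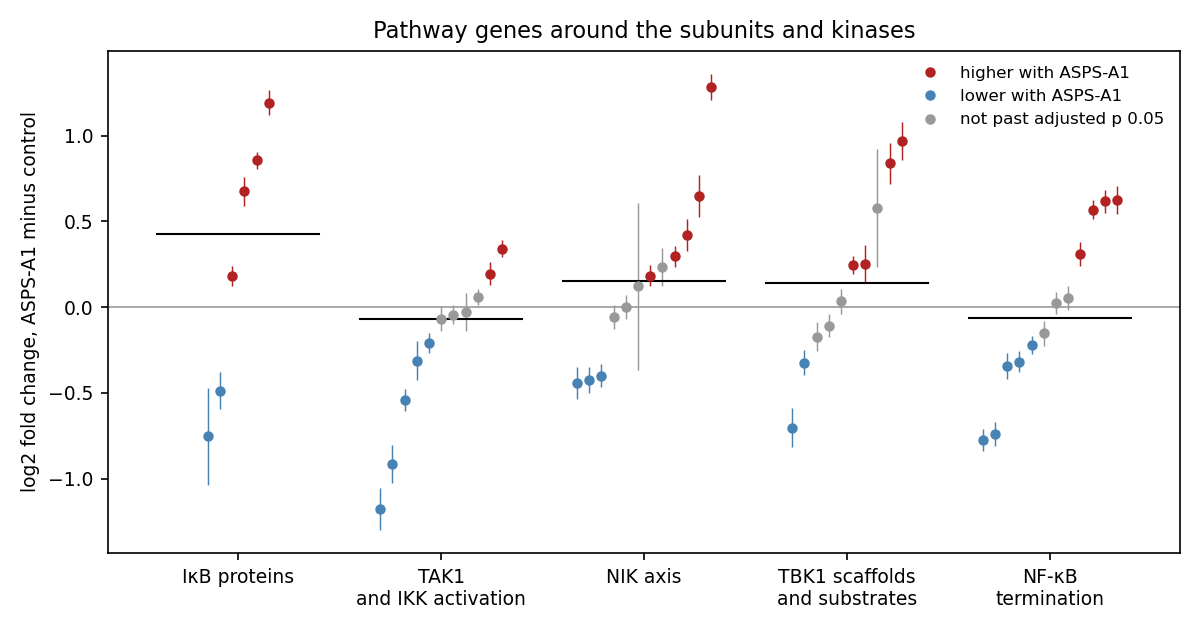
Log2 fold change (ASPS-A1 minus control, bars the SE) of each tested gene in 5 pathway lists, with a black line at the list median. Red points passed the test as higher with ASPS-A1, blue points as lower and grey points did not pass, and each list holds red and blue points.

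The genes whose profile over the 6 libraries was closest to that of Ikbke were Lilrb4a, an inhibitory immunoglobulin-like receptor, a row listed as Or5m3b, and the arginyl-tRNA synthetase Rars. The row Or5m3b, an olfactory receptor symbol, had 1337 CPM with ASPS-A1 and 630 CPM in control, and whether its symbol is right was not tested. Their distances, over 6 centred log2 CPM values, were 0.069, 0.093 and 0.099. Their log2 fold changes were 1.06, 1.09 and 1.12. Closest to Nfkb2 were the nucleolar protein gene Mybbp1a, the adenylate kinase Ak6 and the nuclear transport factor Nutf2, at distances of 0.034, 0.039 and 0.042. With 2 groups of 3 libraries, such a profile mostly carries the difference between the groups.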

How the data were processed

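Counts per gene symbol, whole numbers with 1 column per library and no normalization, were deposited by the authors. Per the submitters' processing notes the tools included HTSeq 0.9.1, HISAT2 2.1.0, DESeq 1.38.3 and fastp 0.22.0. How reads matching more than 1 gene were counted, whether by strand, and on which build and annotation, is not given in the sources used here. Genes were kept with filterByExpr of edgeR (minimum count 10, minimum total 15), scaled with TMM factors and fitted with edgeR 4.0.16 (estimateDisp, glmQLFit and glmQLFTest, robust, two-sided) in R 4.3.3. The script was tested on simulated data. CPM use TMM-scaled totals, log2 fold changes give ASPS-A1 over control, and the SE is the absolute log2 fold change over the square root of F. Ratios used counts plus 0.5. Transcript lengths (longest basic transcript) came from GENCODE M21 and covered 97.4% of the genes tested, and upstream sequence came from RefSeq on GRCm38.p6.

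Genes, lists and tests were chosen with earlier results of these data known. Named genes are the 10 genes, per list up to 2 called genes in each direction with the largest change and at least 5 CPM, or the most abundant where none was called, and the 3 closest profiles to each of the 2 genes that changed most. The result of 1 gene that this rule names is not reported here. No library was a copy of another in its group (chi-square of their counts over its degrees of freedom 4.27 to 6.95). Alternatives were other scalings, DESeq2 1.42.0, limma-voom (limma 3.58.1), other filters, a replicate block, length and GC offsets (lowess, span 0.3) and leaving out each library.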

Additional observations from a re-analysis of the deposited data

How the results depend on the processing

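Under every alternative run, 5 or 6 of the 10 genes were higher and 2 or 3 lower. The ratios were rerun only with other values added to the counts, with each library left out and with the length and GC offsets. In those runs 4 of the 5 ratios kept their direction, the exception being Relb to Rel. With each library left out in turn, 5 to 6 of the 10 genes were higher and 2 lower, and over all genes 3511 to 3679 were higher and 3597 to 3707 lower. Of the 15 alternatives, Nfkb1, Nfkb2, Rel, Relb, Ikbke, Ikbkg and Tbk1 kept their direction and call under all. With library totals alone 2529 genes were higher and 5454 lower, against 3783 and 3852. The call of Ikbkb was gained there (−0.29) and that of Chuk without ASPS-A1 replicate 2 (0.13). Sharpin turned to −0.017 with the length and GC offsets. The cause was not tested in these cases. Library numbers did not pair the samples (correlations of deviations −0.0138, 0.00709 and 0.00398), and with the replicate block 5 of the 10 genes were higher and 2 lower, and 3746 of all genes were higher and 3807 lower. With the same offsets, chosen for ratios after seeing the data, the differences were 0.36 for Nfkb2 to Nfkb1, 0.34 for Relb to Rela, −0.25 for Relb to Rel, 0.050 for Chuk to Ikbkb and 1.55 for Ikbke to Tbk1. With the median in place of the longest transcript length, also chosen after seeing the data, the Nfkb2 share was 26.4% with ASPS-A1 and 21.7% in control, and the Ikbke share 50.8% with ASPS-A1 and 30.8% in control. Rela is the subunit whose interval is widest, and its control libraries had 18.8, 23.4 and 17.3 CPM.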
